A study of Arabidopsis thaliana with 8 samples.

Results

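The regions described here are the URI peaks beside 6 regulators of the jasmonate response in Arabidopsis thaliana roots, namely the repressor genes JAZ1, TIFY10B (also called JAZ2), JAZ3, JAZ4 and JAZ6 and the transcription factor gene MYC2. Peaks were taken as members when they overlapped one of these genes widened by 1500 bp on both sides. This gave 7 of the 2366 peaks in the authors' deposited table, 2 of them at JAZ3 and 1 at each other gene. URI (bHLH121) is a transcription factor of the basic helix-loop-helix (bHLH) family that acts in the response to low iron (Fe). Chromatin was taken from roots of a uri mutant carrying a complementing transgene, exposed for 72 h to deficient Fe (3 URI libraries and 1 IgG control library) or to sufficient Fe (3 URI libraries and 1 IgG control library). The sources used here give neither the construct and promoter of the transgene, nor the number of lines, nor whether replicates were grown separately, so p-values reflect the spread between these libraries, which may be technical. The mutation and the transgene were shared by both conditions.

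Jasmonate is a plant hormone of defence and wounding that also restrains root growth. JAZ proteins hold the response off by binding MYC2 and related bHLH factors and recruiting corepressors through NINJA. When the active hormone is present, the receptor COI1 binds JAZ proteins and marks them for degradation, and the freed MYC2 activates its targets, the JAZ genes among them. Jasmonate treatment is also known to lower the expression of Fe uptake genes in Arabidopsis roots.

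The table holds, for each peak, a mean concentration over all URI libraries and 1 for each Fe condition. These are read here as log2 of normalised reads per peak, and each value was raised from the log2 scale to give the reads in the text. No values per library are in the table, so the spread between replicates cannot be shown at any level. The depth of the libraries is unknown. All changes are Fe deficient minus Fe sufficient on the log2 scale. The deposited p-value and false discovery rate (FDR) carry their error. An approximate 95% interval, not adjusted for the number of peaks, was added here, from the error implied by each deposited p-value. It assumes that the deposited change and p-value come from the same estimate, which is not stated. The intervals and the recentred tests below are therefore rough guides. For peaks with a change under 0.2 in size (JAZ1, the wider JAZ3 peak and TIFY10B among the members) the error was instead the median over peaks of like concentration, and the interval from the peak's own p-value is given beside it. The own error was 0.21 against 0.32 at JAZ1, 0.22 against 0.34 at the wider JAZ3 peak and 0.89 against 0.45 at TIFY10B (log2). At changes near 0 the own error also depends on the rounding of the deposited change. Wide peaks hold more reads (Spearman rho of 0.90 across all peaks, which are not independent replicates), so levels are also given per kb of peak.

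The peaks lay at an end of their genes in most cases. In TAIR10 coordinates as deposited, the JAZ1 (AT1G19180) peak spanned chromosome 1, 6619056 to 6622315, and at 3259 bp was the widest of the 7, against a median width of 734 bp over all peaks. It reached 538 bp into the gene at its lower-coordinate end, so 16.5% of the peak was inside JAZ1. It also lay within 1500 bp of the protein-coding gene AT1G19170 and overlapped the lncRNA gene AT1G05473 and the noncoding RNA gene AT1G08925. JAZ3 (AT3G17860) had a 1687 bp peak across its lower-coordinate end (chromosome 3, 6118466 to 6120153) and a 776 bp peak that lay entirely inside the gene (6120350 to 6121126). The MYC2 (AT1G32640) peak, on chromosome 1 from 11800732 to 11802016, had its midpoint 33.0 bp inside the higher-coordinate end of the gene. This MYC2 peak also overlapped the neighbouring gene AT1G32630, and the authors' table does not say to which gene the signal belongs.

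The other 3 JAZ genes had peaks narrower than that of JAZ1. That of TIFY10B (AT1G74950) spanned chromosome 1, 28150270 to 28151469, overlapped 176 bp of the higher-coordinate end of the gene and lay within 1500 bp of FAB1. JAZ4 (AT1G48500) had the narrowest of the 7, with 492 bp (chromosome 1, 17931072 to 17931564), centred 72.0 bp outside its lower-coordinate end. The JAZ6 (AT1G72450) peak, on chromosome 1 from 27276766 to 27277664, was the only one of the 7 that did not touch its gene, with a gap of 204 bp. This JAZ6 peak overlapped the lncRNA gene AT1G09307, and to which gene its signal belongs is not known. For all 7 peaks the member gene was the protein-coding gene nearest to the midpoint. The gene table used has no strand, so transcription start and 3′ end cannot be told apart, and exons and introns are not annotated in it. The first peak beyond the window was one at 2468 bp from TIFY10B, nearest to ORA47. In the authors' deposited table it had 19.8 reads under Fe deficiency and 28.1 under Fe sufficiency.

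**Figure D1:**
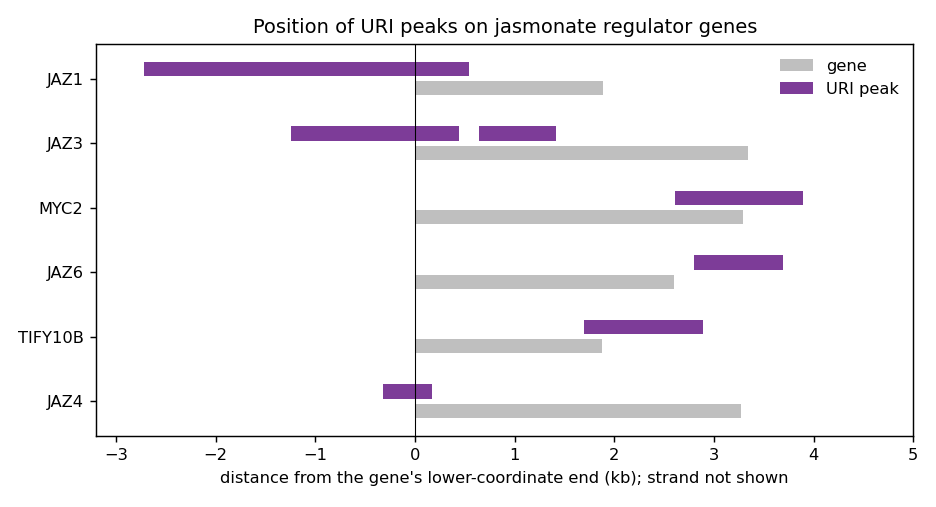
Map of the 7 peaks (purple) on the 6 genes (grey), as distance in kb from the lower-coordinate end of each gene. Peaks lie across or beside a gene end, except the narrower JAZ3 peak, which is inside the gene, and the JAZ6 peak has a gap of 204 bp to its gene.

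JAZ1 carried by far the most URI signal of the group. In the authors' deposited table its peak had 79.9 reads under Fe deficiency and 81.6 under Fe sufficiency, rank 23 of 2366 by mean concentration. The wider JAZ3 peak came next, with 39.9 reads under deficiency and 41.4 under sufficiency in the authors' deposited table (rank 80). Both peaks thus had nearly the same authors' mean in either Fe condition.

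The remaining 5 peaks were weaker, and those other than JAZ4 lay close to each other. The narrower JAZ3 peak had 18.6 reads under Fe deficiency and 22.5 under Fe sufficiency in the authors' deposited table. MYC2, the main transcription factor that JAZ proteins hold back, had 14.6 reads under deficiency and 20.7 under sufficiency there. JAZ6 had 12.2 reads under deficiency and 20.4 under sufficiency in the authors' deposited table. The authors' deposited table gave TIFY10B, which encodes the closest relative of JAZ1, 16.2 reads under deficiency and 14.3 under sufficiency. JAZ4 was the weakest in the authors' deposited table, with 5.58 reads under deficiency and 11.9 under sufficiency. The mean concentrations of the narrower JAZ3, MYC2, JAZ6 and TIFY10B peaks lay between 3.93 and 4.36 (log2), and the order among these neighbours was not tested, since the table gives no spread between libraries. All but JAZ4 were above the median concentration of all peaks (3.61, or 12.2 reads).

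**Figure D2:**
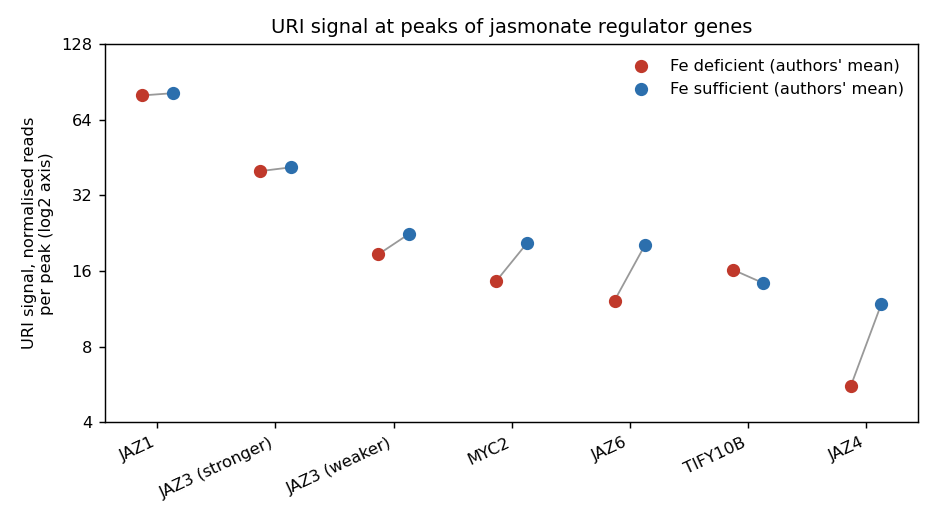
URI signal in normalised reads per peak (log2 axis) for the 7 peaks, ordered by mean concentration, with the authors' mean under Fe deficiency (red) left of that under Fe sufficiency (blue) and no error bars, since the table gives group means alone. JAZ1 (79.9 and 81.6 reads) and the stronger JAZ3 peak (39.9 and 41.4 reads) are level across conditions, and the blue point is the higher at all but TIFY10B.

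Per kb of peak, the picture split by gene. Both JAZ3 peaks and that of JAZ1 had similar mean densities, with 26.5 reads per kb at the narrower JAZ3 peak, 24.9 at JAZ1 and 24.2 at the wider JAZ3 peak, ranks 72, 97 and 113 of 2366. These 3 peaks thus differed in width far more than in density. MYC2 with 13.8 reads per kb and TIFY10B with 12.7 lay below the median of all peaks, 16.6 reads per kb. JAZ6 with 18.2 and JAZ4 with 17.7 reads per kb were just above it.

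By the authors' deposited table, none of the 7 peaks passed an FDR of 0.05 between Fe conditions. Over the whole table, 26 of the 1311 peaks that entered the FDR adjustment were called higher under Fe deficiency (1.98%) and 1 was called lower (0.0763%), so a count of 0 among the 6 members that were adjusted is near the background and says nothing particular about them. The count of members at an unadjusted p under 0.05 was 1, JAZ4, while 13.6% of all peaks had such a p. DiffBind is the tool named for the table, and its test and settings are not stated. Adjusting the deposited p-values over all 2366 peaks by Benjamini-Hochberg also called 0 of the 7.

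The strongest peaks had the smallest changes. JAZ1 had a log2 change of -0.03 in the authors' deposited table (FDR 0.921), with an approximate interval of -0.65 to 0.59, or -0.44 to 0.38 from its own p-value. The wider JAZ3 peak had -0.05 (FDR 0.875, interval -0.72 to 0.62, or -0.49 to 0.39 from its own p-value). For comparison, the peak of IRT1, the main root Fe transporter gene, had the same mean concentration as JAZ1 (6.34) and a change of 2.15 in the authors' deposited table (FDR 4.24e-11); it was chosen after its values were seen. Expressed as a fold, Fe-deficient signal at JAZ1 was 0.979 times the Fe-sufficient signal, with an approximate interval of 0.636 to 1.51.

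At weaker peaks the values were mostly below 0, with wider intervals. The narrower JAZ3 peak had a log2 change of -0.27 in the authors' deposited table (FDR 0.61, interval -0.98 to 0.44). For MYC2 the change was -0.50 in the authors' deposited table (FDR 0.42, interval -1.29 to 0.29), or 0.707-fold. JAZ6 had -0.74 (p = 0.0804, FDR 0.328, interval -1.57 to 0.09) in the authors' deposited table. All 3 intervals include 0, and their lower bounds, as folds, were 0.506 at the narrower JAZ3 peak, 0.408 at MYC2 and 0.337 at JAZ6, so decreases of up to those sizes lie within the intervals.

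JAZ4 and TIFY10B stood at the ends of the range. In the authors' deposited table the JAZ4 peak was at -1.09 on the log2 scale (p = 0.0438), or 0.47-fold, with an interval of -2.15 to -0.03. Its mean concentration of 3.12 was among the low values that were left out of the authors' FDR adjustment (deposited FDR 1), and adjusted over all 2366 peaks its FDR was 0.349. Of all peaks, 10.1% had a change below 0 at an unadjusted p under 0.05. TIFY10B was the only member above 0, at 0.18 (FDR 0.888) in the authors' deposited table. Its interval was -0.70 to 1.06 with the standard error of peaks of like concentration, and -1.57 to 1.93 with the larger error that its own deposited p-value (0.84) implies. The upper bounds of the other 6 peaks all lay below 1.16, the smallest increase called in the authors' deposited table. Differences in change between members were not tested.

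Most peaks of the table (79.8%) had lower values under deficiency, and 6 of the 7 member peaks did so too. The median change was -0.46 over all 2366 peaks and -0.27 over the 7 members. Relative to the median peak, JAZ1 had a change of 0.43, the wider JAZ3 peak 0.41, the narrower JAZ3 peak 0.19 and TIFY10B 0.64, so the signs of JAZ1 and of both JAZ3 peaks turned. MYC2 was at -0.04, JAZ6 at -0.28 and JAZ4 at -0.63. None of these passed an FDR of 0.05 by the normal approximation from the implied errors, and the lowest FDR of the members was 0.944. With each peak's own implied error instead, the lowest was 0.39, at JAZ1. Over all 1311 adjusted peaks, recentring with the first errors called 4.81% higher and 0% lower. With each peak's own implied error it called 75 peaks higher and 0 lower. MYC2 was thus the member closest to the typical peak, and its own interval includes both 0 and the median.

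**Figure D3:**
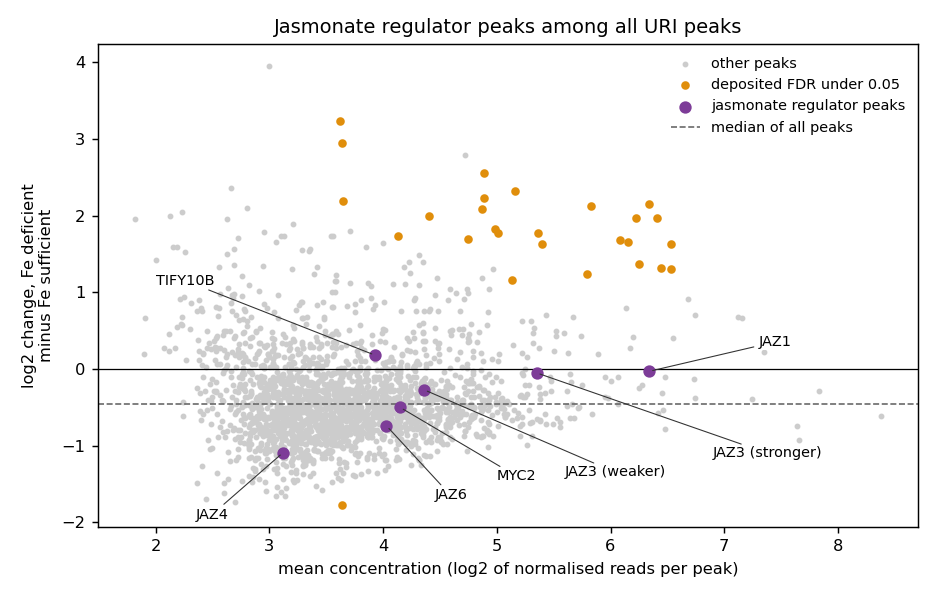
Change of URI signal (log2, Fe deficient minus Fe sufficient) against mean concentration (log2 of normalised reads per peak) for all 2366 peaks, with the 7 jasmonate regulator peaks in purple, peaks at a deposited FDR under 0.05 in orange and the median change of -0.46 as a dashed line. JAZ1 and the stronger JAZ3 peak sit near 0 at high concentration, and no purple point lies among the orange ones.

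Precision followed signal. With all peaks ranked by concentration and split into 4 equal parts, the highest part held JAZ1, both JAZ3 peaks and MYC2. Its median implied standard error was 0.38 (log2), and 22 of the 26 increases were called there. In the next part, with JAZ6 and TIFY10B, it was 0.46 with 4 increases and the 1 decrease. In the part of lowest concentration, which held JAZ4, it was 0.62 and nothing was called, and its peaks were not part of the authors' adjustment.

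Among the 13 JAZ genes of Arabidopsis, URI peaks were found at 5, all of them members, since the members were named with these peaks known. By sequence family, 3 of the 4 genes of the JAZ1 group (JAZ1, TIFY10B and JAZ6, without JAZ5) and 2 of the 3 of the JAZ3 group (JAZ3 and JAZ4, without JAZ9) had a peak within 1500 bp. The other 6 genes, JAZ7, JAZ8, JAZ10, JAZ11, JAZ12 and JAZ13, had 0. The share of all protein-coding genes with a peak within 1500 bp was not computed, so these counts do not show an enrichment. A peak 2665 bp from JAZ9, nearest to HWI1, had 12.9 reads under Fe deficiency and 22.5 under Fe sufficiency in the authors' deposited table. In the JAZ1 group the changes were -0.03, 0.18 and -0.74, with a median of -0.03. The 3 peaks of the JAZ3 group had a median of -0.27, and the difference between the groups was not tested.

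The other genes with peaks on a fixed list of jasmonate genes all had lower mean concentrations than JAZ1. Genes of the pathway outside that list were not examined. Of 41 further genes, 8 had 1 peak each within 1500 bp, and the authors' deposited table called 0 of these 8 higher or lower at an FDR under 0.05 (backgrounds of 1.98% and 0.0763% of adjusted peaks). Only 5 of the 8 were in that adjustment. At an unadjusted p under 0.05 the count was also 0 of 8, against 13.6% of all peaks. Their median change was -0.52, against -0.46 over all peaks, and 7 of the 8 values were below 0. In a list of 5 genes, made up of the receptor COI1, NINJA, TPL, MED25 and the conjugating enzyme JAR1, 4 had a peak. The share of all genes with a peak was not computed, so neither this count nor the 8 of 41 shows an enrichment. JAR1, which encodes the enzyme that makes the active jasmonate conjugate, had 26.9 reads under deficiency and 42.8 under sufficiency in the authors' deposited table (log2 change -0.67, p = 0.0509, FDR 0.292), in a peak 1301 bp from the gene, with AT2G46360 nearest to its midpoint. The peak of the corepressor gene TPL had 23.9 reads under deficiency and 30.7 under sufficiency there (-0.36, FDR 0.519).

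MED25, a Mediator subunit gene that works with MYC2, had 12.8 reads under Fe deficiency and 22.9 under Fe sufficiency in the authors' deposited table (log2 change -0.84, p = 0.062, FDR 0.313). This peak lay 785 bp from MED25 and overlapped AT1G25550, the protein-coding gene nearest to its midpoint. The authors' deposited table gave NINJA, the adaptor between JAZ proteins and corepressors, 11.6 reads under deficiency and 11.1 under sufficiency (0.06), in a peak left out of the FDR adjustment. COI1, the receptor gene, had no peak within 1500 bp. Of the 5 other bHLH factor genes only JAM2, a repressor of jasmonate responses, had a peak within 1500 bp. It had 12.4 reads under deficiency and 14.8 under sufficiency in the authors' deposited table (-0.26, FDR 0.672). MYC3 and MYC4, the close relatives of MYC2, had none in the window. Beyond it, JAM1 had a peak at 1553 bp (log2 change -0.64) and MYC4 one at 2539 bp (-0.79, FDR 0.298) in the authors' deposited table. Those peaks were nearest to PI4K GAMMA 4 and PYR1.

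A list of 12 further genes of hormone synthesis and turnover, which does not hold JAR1, had peaks at 3. No share over all genes was computed to set beside this count. CYP94B3, whose product oxidises the active hormone, had 27.1 reads under deficiency and 33.6 under sufficiency in the authors' deposited table (log2 change -0.31, FDR 0.531). The related CYP94C1 had 4.89 reads under deficiency and 10.2 under sufficiency there (log2 change -1.06). In the authors' deposited table AOC4, an allene oxide cyclase gene of jasmonate synthesis, had 5.50 reads under deficiency and 8.94 under sufficiency (-0.70). Both of these peaks lay entirely inside their genes and were left out of the FDR adjustment. No peak was found at the 5 output genes (VSP1, VSP2, PDF1.2, ERF1 and ORA59) or at the 6 other TIFY genes.

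**Figure D4:**
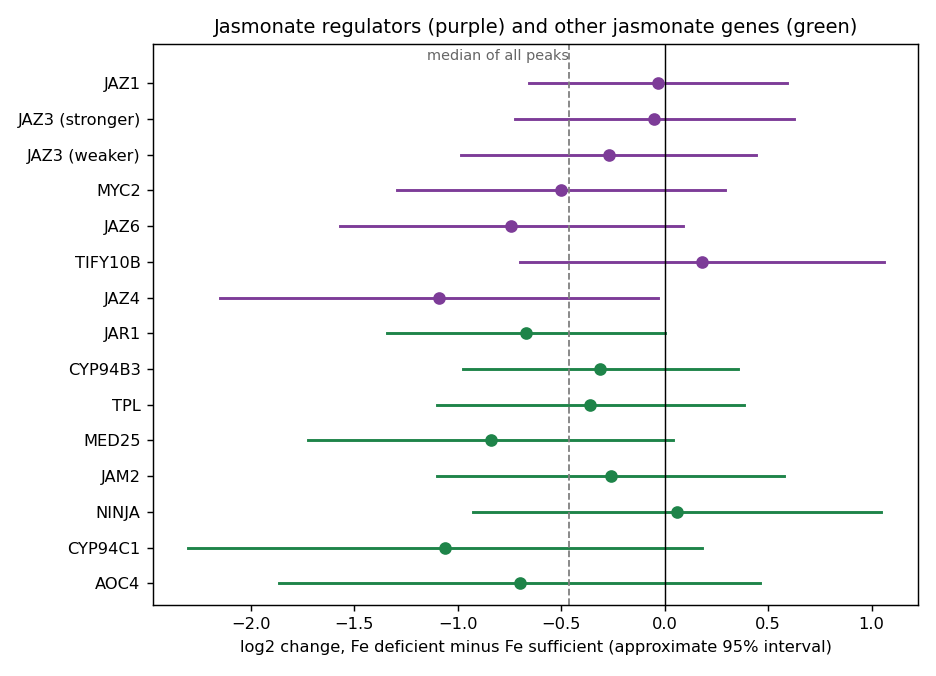
Log2 change (Fe deficient minus Fe sufficient, points) with approximate 95% intervals (lines) at the 7 regulator peaks (purple) and the 8 peaks of other jasmonate genes (green), each ordered by mean concentration, and the median of all peaks (-0.46) as a dashed line. The JAZ4 interval (-2.15 to -0.03) is the only one that excludes 0, and all 15 as drawn include the median. The JAZ1 interval from its own p-value (-0.44 to 0.38) ends just above the median. That gap is within the rounding of the deposited change.

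Peaks with the most similar pair of levels were taken for each member as the 2 with the smallest distance in the plane of both log2 concentrations, over the 2 Fe conditions only. For JAZ1 these were FER4, a ferritin gene, with 72.0 reads under deficiency and 83.9 under sufficiency in the authors' deposited table (distance 0.16), and LBD39 with 69.6 reads under deficiency and 82.7 under sufficiency (0.20). For the wider JAZ3 peak they were LRB1 (0.13) and AT1G80610 (0.15), and for the narrower one AR781 (0.02) and the phytochrome gene PHYB (0.04). The MYC2 peak was closest to AT5G47740 (0.03) and AT1G74840 (0.03). JAZ6 was closest to TTA1 (0.02) and AT1G28260 (0.02), TIFY10B to AT1G22830 (0.02) and AT1G68490 (0.04), and JAZ4 to AT3G05165 (0.04) and AT2G44770 (0.05). Peaks are named by the nearest protein-coding gene. The third closest peak was often almost as near, at 0.022 for JAZ6, 0.032 for MYC2 and 0.15 for the wider JAZ3 peak. For TIFY10B it was farther off, at 0.12. Where distances are so alike, which 2 peaks are named depends on the rounding of the deposited values.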

How the data were processed

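URI ChIP-seq libraries were grouped by title into Fe-deficient and Fe-sufficient roots. The submitters' processing notes name DiffBind, MACS2, bedtools 2.26.0, Bowtie 1.2.2 and Trimmomatic 0.33, besides Picard 2.4.1 and SAMtools 1.3.1, with the TAIR10 build. Settings, pooling for peak calling, normalisation and the use of the IgG libraries are not stated in these sources. The authors deposited concentrations without a stated scale, read here as log2 of normalised reads. On that reading, the mean column equals the log2 of the mean of the unlogged condition values to within 0.0093. The authors' fold runs from deficiency to sufficiency (to within 0.01), and its sign was turned here. Each p-value and FDR is as the authors deposited it. Recomputing the FDR by Benjamini-Hochberg over 1311 peaks gave theirs to within 0.489%, and was 1 for the other 1055, with mean concentrations up to 3.52.

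Standard errors were computed as the change over the normal quantile of the deposited p-value. This gives a standard error only if both come from the same estimate, which is not stated. For changes under 0.2 (log2) the median over 101 peaks of like concentration was used. Changes were recentred on the median peak. Gene positions came from NCBI RefSeq (TAIR10.1), which shares the nuclear chromosome coordinates of TAIR10, and all 47 listed genes matched. Computation used Python 3.11.15, pandas 2.3.3 and SciPy 1.17.1. Members and gene lists were chosen with earlier results of these data known. The text names every member, every listed jasmonate gene with a peak and the 2 peaks most like each member peak. Genes named as neighbours of a peak, as lacking a peak or as having one beyond the window, and IRT1, were chosen after values were seen.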

Additional observations from a re-analysis of the deposited data

How the results depend on the processing

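The 6 genes and 7 peaks stayed with a window of 1000 bp, with the peak midpoint and with the nearest gene only, and 3000 bp gave 8 peaks. Thresholds of 0.01 and 0.1, adjustment over all peaks and recentring with any of 3 standard errors called 0 member peaks in either direction. Recentring turned the sign of JAZ1 (0.43), the wider JAZ3 peak (0.41) and the narrower JAZ3 peak (0.19), because it adds 0.46 (log2) to every change. The versions of recentring with other standard errors were chosen after the data were seen. With each peak's own implied error, JAZ1 had an unadjusted p of 0.0417 and an FDR of 0.39 after recentring, against 0.99 in the first version. That own error rests on a deposited change of -0.03, and the rounding of this change alone can move it. Over all peaks, recentring gave 63 higher, or 79 with the errors of peaks of like concentration and 75 with each peak's own, and 0 lower each time. The count of lower peaks was 0 at an FDR of 0.01 and 6 at 0.1. Other jasmonate genes with a peak numbered 7 within 1000 bp, 11 within 3000 bp, 7 by the peak midpoint and 6 by the nearest gene only, the last without JAR1 and MED25; the midpoint and nearest-gene counts were added after the data were seen. No paired analysis was possible because the table holds no values per library, and leaving out replicates was not run for the same reason.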
